A study of Arabidopsis thaliana with 2 samples.

Results

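HSP90 is an abundant ATP-driven chaperone that takes over partly folded client proteins, many of them kinases, receptors and transcription factors, from HSP70. Co-chaperones steer that cycle: Hop proteins bridge HSP70 and HSP90 through tetratricopeptide repeats, Aha1-type proteins speed the ATPase of HSP90, SGT1 proteins link HSP90 to plant immune receptors, and large FKBP immunophilins such as ROF2 dock on HSP90 with a peptidyl-prolyl isomerase attached. In plants several of these genes are induced by heat, under the control of heat shock factors. The 7 genes described here are Hop1 (AT1G12270), Hop2 (AT1G62740), Hop3 (AT4G12400), SGT1A (AT4G23570), AT1G30070, which encodes a protein with the SGS domain found in SGT1, AT3G12050, which encodes a protein with an Aha1 domain, and ROF2 (AT5G48570).

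They were found by taking the probe sets whose platform annotation names only that gene. All 7 of 7 were found among the 9062 genes so named in the deposited values. Each of the 7 genes is read by 1 probe set, and all 7 probe sets passed the filter on brightness, which asked for a mean log2 value at or above the median of the table. The set was chosen by the measured difference between genotypes, since genes of the HSP90 machinery with lower values in the mutant were put together with the Hop paralogs of one of them. The differences of these genes are therefore given as a description, with no test.

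One array came from wild-type Arabidopsis thaliana of ecotype Columbia and the other from KO-HsfA1d/A1e, a double knockout in the same ecotype that lacks HsfA1d and HsfA1e, 2 of the class A1 heat shock factors, which switch on heat shock genes. Per the labels, both sets of plants were 2 weeks old, had grown on MS medium at 100 µE m-2 s-1 (16 h light at 25°C, 8 h dark at 22°C), and gave rosette leaves after 30 min at 400 µE m-2 s-1. The sources used here do not give the alleles of the knockout or the number of plants behind each array. Both arrays are from stressed leaves, so a difference between them can be a difference in level before the light, in the response to it, or in both, and these cannot be told apart.

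Because each genotype has 1 array, no p-value and no SD between plants can be given, and every difference compares these arrays only. The values are linear intensities for 16541 probe sets, with a median of 334.1 for the wild type against 331.9 for the mutant, and they carry no detection call. Neither targeted gene has a probe set that names it alone here, so the genotype labels were not checked by their own transcripts. A gene is called measured where a probe set in the deposited values names it alone, so one that is not measured may still be read by an unnamed probe set. Whether the deposited values hold every probe set of the array was not checked. Of 10 leaf markers, 4 were measured and all 4 were past the filter, led by RCA (Rubisco activase) at 22929 (wild type) and 25125 (mutant). The summed intensity of those leaf markers was 50161 and 51843 in the same order. The 2 measured root markers of 5 summed to 8886 and 10947, with AT5G44020 the brighter at 6331 and 7189 and PYK10, a beta-glucosidase of roots, at 2555 and 3758. The only measured seed marker, PAP85, was at 41.1 and 29.8, around the 5th percentile of each array (31.7 and 31.9), 0 of 5 flower markers were measured, and the brightest measured markers of dividing cells and guard cells were AUR2 at 188.4 and 215.8 and FMA at 339.7 and 316.3. Whether these root marker values come from root tissue, and whether they have a part in the differences below, was not tested.

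The co-chaperone transcripts were lower in the mutant in 5 of 7 genes by at least 2-fold, and the other 2, Hop1 and Hop2, stayed under 2-fold. Differences are mutant minus wild type on the log2(intensity + 16) scale, and 2-fold means a size of at least 1 there. The background was 1.38% of the 8271 probe sets past the filter at least 2-fold lower, and 0.121% higher by as much. The median difference over the 7 genes was -1.55, beside 0.03 over the probe sets past the filter. All 7 had the lower value in the mutant, a direction shared by 43.7% of probe sets past the filter. At 3-fold, 3 of the 7 were lower (ROF2, AT1G30070 and Hop3), against 0.617% of probe sets, and at 1.5-fold the same count of 5 stood against 3.34%. These genes were picked for their lower values, so the counts describe how the set was put together.

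**Figure D1:**
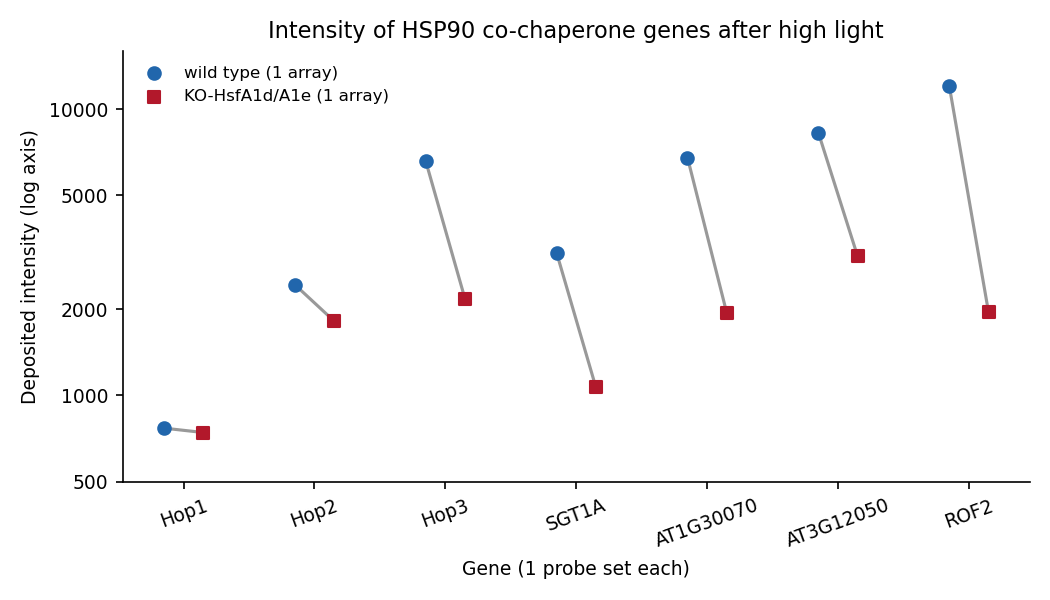
Deposited intensity (log axis) of the 7 co-chaperone genes on the wild-type array (blue circles) and the KO-HsfA1d/A1e array (red squares), 1 array each, with a line joining the values of a gene. The line of Hop1 is nearly flat, from 768.5 to 741.9, and that of Hop2 falls slightly, from 2438 to 1819. The other 5 fall steeply, ROF2 from 12073 to 1955.

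Hop proteins hold HSP70 and HSP90 together while a client passes between them, and Arabidopsis has 3 Hop genes. Hop1 read 768.5 in wild-type leaves and 741.9 in mutant leaves, so the mutant kept 96.5% of the wild-type value (difference -0.05). Hop2 read 2438 and 1819 in the same order, or 74.6% (-0.42). Hop3, known as the member most strongly induced by heat, read 6595 in wild-type and 2177 in mutant leaves, or 33.0% (-1.59). Of the 3 paralogs, Hop3 alone was past 2-fold, while Hop1 and Hop2 lay inside the central 95% of differences, which ran from -0.68 to 0.52. Counted from the most negative difference past the filter, Hop3 was at rank 50, Hop2 at rank 485 and Hop1 at rank 2910 of 8271.

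The differences of Hop3 and Hop1 lay 1.54 log2 units apart, those of Hop3 and Hop2 1.17 apart, and those of Hop1 and Hop2 0.37 apart. These gaps follow in part from how the set was put together, with Hop3 taken for its low mutant value and Hop1 and Hop2 added as its paralogs, so they are values and not evidence that the paralogs differ. For scale, 13 genes past the filter were read by more than 1 probe set, and the differences of a gene's probe sets lay 0.28 apart in the median and 0.56 apart at most. That scatter covers neither plants nor RNA preparation, and the 13 genes differed little between genotypes, with mean differences from -0.29 to 0.17. Hop coding sequences resemble one another, and cross-hybridization between the paralogs was not tested. All 7 probe sets carry the plain suffix _at, which the manufacturer gives to probe sets designed for a single transcript.

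SGT1 proteins carry a tetratricopeptide repeat region, a CS domain that contacts HSP90 and an SGS domain, and they act with HSP90 in the build-up of immune receptors and of SCF ubiquitin ligases. SGT1A had intensities of 3152 (wild type) and 1068 (mutant), a 2.95-fold lower value in the mutant (-1.55). Its paralog SGT1B is not analysed here, because no probe set names it alone, so the pair could not be compared. AT1G30070, the other gene of the set with an SGS domain, had 6777 in wild-type leaves against 1942, 3.49-fold lower (-1.79). The mutant kept 33.9% of the wild-type value for SGT1A and 28.7% for AT1G30070. Their differences lay 0.25 apart.

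Aha1-type proteins bind HSP90 and stimulate its ATPase, as shown in yeast. AT3G12050 had an intensity of 8279 in wild-type and 3062 in mutant leaves, 2.70-fold lower (-1.43). AT5G58110, listed as another gene related to HSP90 activators, had 1989 in wild-type and 1851 in mutant leaves, 1.07-fold lower (-0.10). The first was past 2-fold, the second was inside the central 95% of all differences. AT3G12050 was taken into the set for its low mutant value and AT5G58110 was not. The contrast follows in part from that choice and is not evidence that the 2 genes differ.

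ROF2 is a multidomain FKBP with peptidyl-prolyl isomerase domains and a tetratricopeptide repeat region that binds HSP90, and in Arabidopsis it is known as a heat-induced partner of the related ROF1. The intensity of ROF2 was 12073 in wild-type and 1955 in mutant leaves, 6.17-fold lower (-2.62), and the mutant kept 16.2% of the wild-type value. This was the most negative difference of the 7 genes, at rank 15 of the 8271 probe sets. The next gene, AT1G30070, lay 0.82 away. ROF1 is not analysed here, as no probe set names it alone.

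Hop3, SGT1A, AT1G30070 and AT3G12050 had similar differences, but they were grouped with their values known and ROF2 was left out. All 4 were taken into the set for low mutant values, so their closeness follows in part from that choice. These 4 genes kept 28.7% to 37.0% of the wild-type intensity, and the 6 pairs among them lay 0.05 (Hop3 and SGT1A) to 0.36 (AT1G30070 and AT3G12050) apart. In order from the most negative, the 7 genes were ROF2, AT1G30070, Hop3, SGT1A, AT3G12050, Hop2 and Hop1, an order with no replicate check.

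Most of the co-chaperone genes were bright. When the probe sets past the filter were put in 4 bins of equal size by mean log2 value, 6 of the 7 genes fell in the brightest bin, where 1.89% of 2068 probe sets were at least 2-fold lower. Hop2 was the only one of those 6 under 2-fold. Hop1 fell in bin 2, where 1.21% were at least 2-fold lower. In the brightest bin the central 95% of differences ran from -0.76 to 0.47. Hop2 at -0.42 was inside it, and the 5 others at -1.43 or below were outside. Those 5 were taken into the set for low mutant values, so their place outside these limits follows from that choice. Whether brightness plays a part in their differences was not tested. Bin 2 had limits of -0.66 and 0.55. The filter left 4160 genes named alone, and the 5 co-chaperone genes are among the 53 of these (1.27%) that were at least 2-fold lower.

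**Figure D2:**
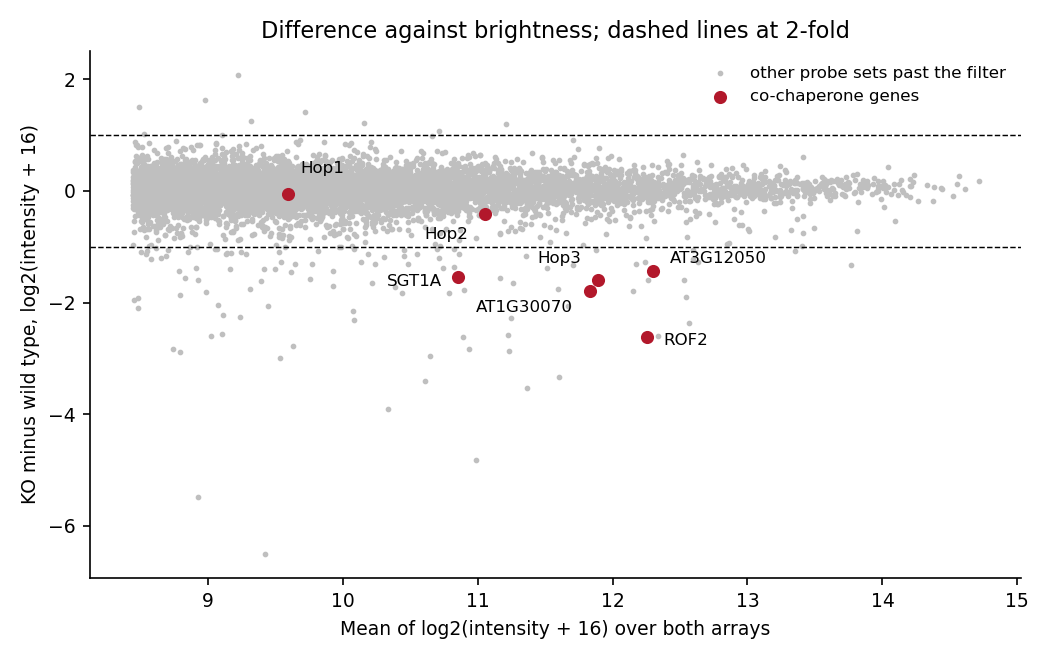
Mutant minus wild-type difference of log2(intensity + 16) against the mean of both arrays, for the 8271 probe sets past the filter (grey) and the 7 co-chaperone genes (red), with dashed lines at 2-fold. Hop1 at -0.05 and Hop2 at -0.42 lie in the grey band. The other 5 lie below the lower line at bright values, with ROF2 lowest at -2.62.

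The rest of the HSP90 system was thinly covered by named probe sets. Of 7 HSP90 genes, 0 had a probe set that names them alone, as had 0 of 8 partners and clients of SGT1 and HSP90. Of 17 further co-chaperones, 4 had one. The 7062 probe sets with no gene name here may read some of the rest, so those genes are unnamed and not shown to be absent. The median difference of the 4 measured co-chaperones, with SQN under the filter, was -0.01, and it does not describe the 13 others. None of these 4 reached 2-fold in either direction. BOB1, a NudC-domain protein that acts as a small heat shock protein in Arabidopsis thermotolerance, came nearest, with 2358 in wild-type and 1185 in mutant leaves, 1.99-fold lower (-0.98). It was at rank 119 and below the central 95% of differences, whereas 1.26% of its brightness bin (bin 3) were at least 2-fold lower, and after a loess fit of the difference on the mean it was past 2-fold. The p23-1 gene AT4G02450, whose product binds the ATP-bound form of HSP90, had 1361 and 1434 (0.07). SQN, the cyclophilin CYP40 that docks on HSP90 through tetratricopeptide repeats, was under the filter at 130.0 and 139.8 (0.09).

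ROF2 was also set beside other FKBP genes, most of which lack the tetratricopeptide repeats. Of 17 such genes, 11 were measured and 9 were past the filter. None reached 2-fold, 4 had the lower and 7 the higher value in the mutant, and the median difference was 0.03, the same as over all probe sets past the filter. The largest sizes past the filter were those of FKBP16-4, at 1497 in wild-type and 1057 in mutant leaves (-0.50), and FKBP17-3, at 2083 and 1739 (-0.26). At the other end FKBP20-1 had 797.5 and 951.2 (0.25). The measured FKBP genes ranged from -0.50 to 0.25, beside -2.62 for ROF2, which was taken into the set for its low mutant value. ROF1, the relative of ROF2, is not among them, as it was listed with the co-chaperones and was not measured.

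**Figure D3:**
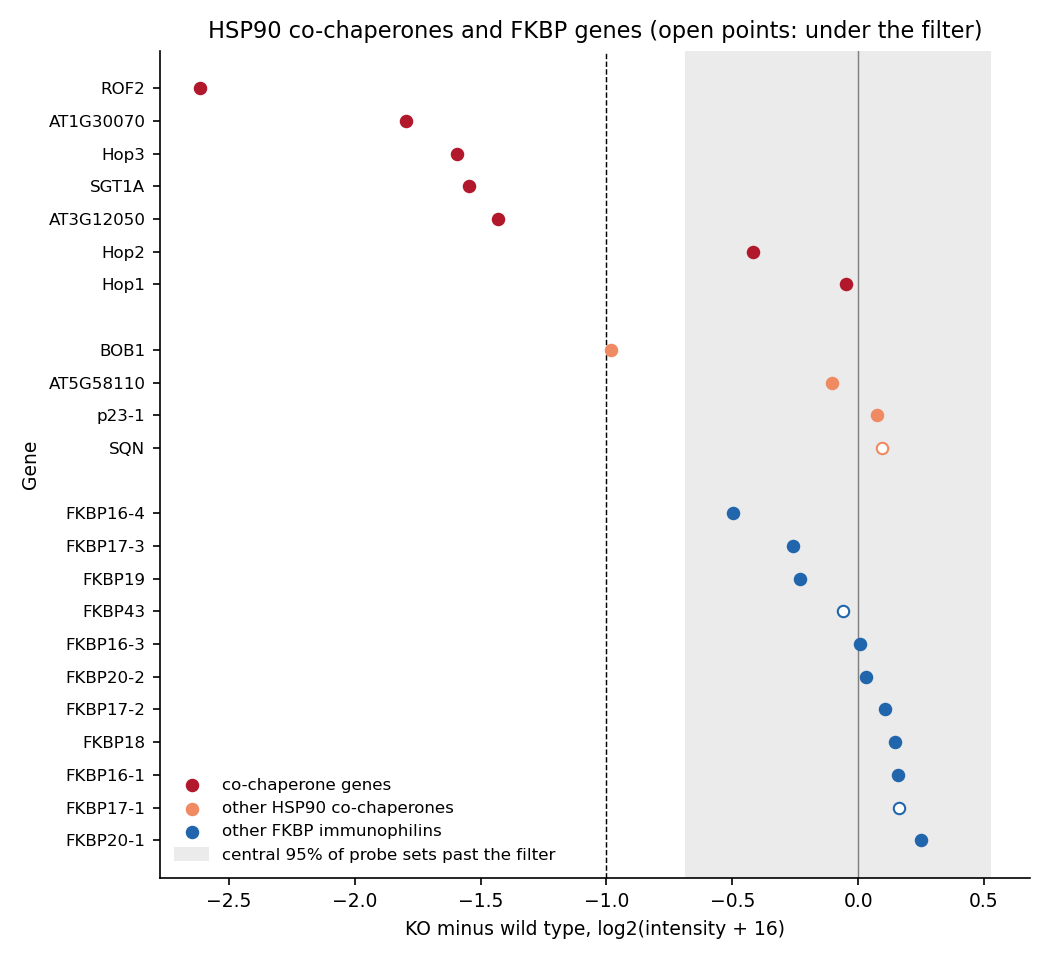
Mutant minus wild-type difference of log2(intensity + 16) for the 7 co-chaperone genes (red), 4 other HSP90 co-chaperones (orange) and 11 other FKBP immunophilins (blue), with open points for genes under the filter, a grey band for the central 95% of probe sets past the filter and a dashed line at 2-fold lower. BOB1 at -0.98 sits just short of the dashed line, and all 11 FKBP genes lie inside the band.

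For each gene, the named probe set past the filter with the most similar pair of values was sought by Euclidean distance in the plane of the wild-type and mutant log2 values, among 4172 candidates. Hop3 and AT1G30070 were each other's nearest, at a distance of 0.17. Both were taken into the set for low mutant values, so their closeness follows in part from that choice. AT3G12050 was nearest to Cpn60beta2, a chloroplast chaperonin subunit, which had 8537 in wild-type and 2812 in mutant leaves (distance 0.13). SGT1A was nearest to AT1G14200, at 2758 and 1045 (0.19). ROF2 was nearest to the calmodulin-like gene AT2G41090, at 8452 and 2425 (0.60). Hop1 was nearest to AT1G21050, at 762.8 and 739.2 (0.01), and Hop2 to AT2G25520, at 2448 and 1927 (0.08). Each distance rests on 2 arrays only, takes in the brightness of different probe sets as well as their differences, and leaves out probe sets with no single gene name, some of which may lie nearer.

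Genes that lie next to the co-chaperone genes on the chromosome were looked up in the TAIR10.1 gene table. Of the 14 protein-coding neighbours, 2 were measured, both under the filter and neither past 2-fold. AT1G62730, beside Hop2, had 152.6 in wild-type and 121.9 in mutant leaves (-0.29), and AT3G12040, beside AT3G12050, had 51.5 and 49.1 (-0.05). For Hop1, Hop3, SGT1A, AT1G30070 and ROF2 no neighbour was measured.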

How the data were processed

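Total RNA from rosette leaves was labelled by the 3'IVT Express procedure from 100 ng, per the labels' protocols. As deposited, each probe set has 1 linear intensity per array. The sources used here do not give the probe summarization, background correction, scaling between arrays or genome build. Array number limits precision: 1 array per genotype allows no test.

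Probe sets were named by GEO's platform annotation, with symbols brought up to date in the TAIR10.1 gene table by Entrez identifier. Among 16541 probe sets, 9139 had 1 symbol (9095 matched the table), 340 had several and 7062 had none here. A gene was read by its brightest probe set that names it alone.

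Values were taken as log2(intensity + 16), which slightly understates changes. They were used as deposited because the array medians over the probe sets past the filter differed by 0.02, under the limit of 0.1. Folds and percentages are ratios of deposited intensities. The filter kept means at or above 8.44 (intensity 332.0). The lists hold textbook members, and members and lists were chosen with earlier results of these data known. Named were all 7 members, every measured gene of the HSP90 lists, the other FKBP genes past the filter with at least 1.5-fold or else the 2 largest, the nearest gene of each member, and the brightest marker of each list. FKBP20-1, PYK10 and the chromosomal neighbours were added after their values were seen. Python 3.11.15, numpy 2.4.6, pandas 2.3.3 and statsmodels 0.14.6 were used, and the counting was tested on simulated data. Alternatives were 3 scalings, pseudocounts of 1 and 64, other filters and thresholds, and other probe set choices.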

Additional observations from a re-analysis of the deposited data

How the results depend on the processing

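Each of the 84 single values rerun (differences of the 7 genes, the gaps among the Hop genes, and the medians) moved by less than the SD of 0.20 between probe sets of a gene under median centring, quantile normalization, loess, pseudocounts of 1 and 64, leaving out _s_at and _x_at probe sets, and averaging a gene's probe sets. The last 2 could not alter genes read by 1 plain probe set. Of the 84, 83 kept their sign. The exception was the median of the HSP90 system lists (0.03), which ranged from -0.01 to 0.03. The difference of ROF2 ran from -2.66 to -2.59 and the gap between Hop3 and Hop1 from -1.55 to -1.52. The count of 5 co-chaperone genes at least 2-fold lower became 3 at 3-fold and was 5 under the other 10 alternatives. Within the HSP90 system lists the count of 0 became 1 (BOB1) after loess and at 1.5-fold. Over all probe sets the 114 lower and 10 higher became 377 and 127 without the filter, and 65 and 3 when it stood at percentile 75. A 1.5-fold threshold gave 276 and 129, and a 3-fold threshold gave 51 and 2, by construction. No paired analysis was possible because only 1 array stands for each genotype, and for that reason no replicate could be left out. Dim probe sets have unknown background.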
